A study of Homo sapiens with 8 samples.

Results

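In 2 transcriptome-wide lists of candidate acetylated cytidines, 10 genes carried several sites each: PRKAR1A, RPL23AP42, PTS, BUD23, EPB41L2, LIG1, PCBP1, ZFAND6, DAZAP1 and STK11. They were chosen by their number of listed sites, 3 or more in at least 1 list, among genes outside the large functional families, so that number carries no test. They are 10 of the 1506 genes listed, and 34 of the 1851 distinct listed positions fell in them. The material was H1, an established human embryonic stem cell line, profiled by chemical ac4C sequencing in 8 libraries that form 4 groups of 2 replicates. NAT10 KD cells, which had received a lentiviral shRNA against NAT10 together with GFP and were expanded as GFP-positive cells in TeSR-E8 with 0.5 µg/ml puromycin, gave RNA treated with NaCNBH3 and untreated input RNA. WT cells gave the same 2 kinds of RNA, and no control shRNA is described for them, so transduction, sorting, drug and medium cannot be told apart from the knockdown. All cells were kept on Matrigel, and mRNA was captured from total RNA before treatment. The labels do not say whether replicates were separate cultures.

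N4-acetylcytidine (ac4C) is a cytidine that carries an acetyl group on its base, and NAT10 is the acetyltransferase that writes it in rRNA, tRNA and, as reported, in mRNA. Reduction with sodium cyanoborohydride turns ac4C into a base that reverse transcriptase partly reads as T, so acetylated positions appear as C-to-T changes in treated RNA. Sites that NAT10 modifies together with its partner THUMPD1 have been described at the middle C of the triplet CCG.

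What was analysed is 1 list of sites per genotype, giving for each site its hg38 position and strand, the gene, and a score of the authors' own. Neither list holds read counts, conversion levels or values per replicate. The depth behind a site is therefore unknown, no value below has a replicate error, and counts of sites describe these 2 lists. A gene with more RNA offers more reads at each of its bases, and in bulk RNA fewer cells with a transcript and less of it per cell cannot be told apart. RNA levels were not analysed here, so the part of RNA abundance in any count below was not tested. NAT10 itself had 0 listed sites in both lists. Of 7 genes fixed as markers of pluripotent cells, 4 had a listed site in NAT10 KD and 5 in WT, and of 8 markers of other cell types 2 and 3 did, counts that give no expression level. Of all 20056 protein-coding gene symbols in the RefSeq table, expressed or not, 3.94% had a listed site in NAT10 KD and 4.19% in WT.

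The sequences of 4 of the 10 genes could be read around a listed site, because the site fell inside a RefSeq window of 250 bases before to 50 bases after an annotated gene start (GRCh38.p14, the same assembly as hg38). They are shown because they place 7 of the 34 positions on actual bases. Only the PTS stretch holds neighbouring sites of the same list. The neighbouring bases marked in PRKAR1A came from different lists. Each stretch has 30 bases, reads 5′ to 3′ on the strand of the site (plus in all 4), and has the listed bases in capitals. The PCBP1 stretch was read from the window of the antisense gene PCBP1-AS1 and reverse-complemented.
PTS chr11:112226428-112226457: agacagcgCCgggaagatgagCacggaagg
PRKAR1A chr17:68515405-68515434: gtctggcagtaccgCCgccagtgaggaggc
ZFAND6 chr15:80059768-80059797: gcggcggcgcgcagCgtgtcaggcggagag
PCBP1 chr2:70088282-70088311: ccattccgtaccagCccatgccggccagct

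All 7 listed bases were C on the site's strand. The same held over the lists as a whole wherever a window covered a site: 94 of 94 covered positions had a C. A method that reads C-to-T changes implies a C at each listed base, so this checks only positions and strands. In 2 of the 7 positions the C was the middle base of CCG, the second C of the PTS pair and the second C of the PRKAR1A pair. Over the 92 covered positions whose neighbours on both sides were also covered, 9 (9.78%) were the middle of CCG, and of all C in the 35116 RefSeq windows, read on the gene's strand, 6.98% were. The listed C stood before a G in 3 of the 7 positions and in 47 of the 92 (51.1%). Of all C in the windows, 19.9% did. Most bases of a window lie before the start, so the window shares are no matched background. CCG, or CGG for the other strand, occurs in all 4 printed stretches, and 53.9% of 30-base stretches that begin at the gene start hold it in these windows, so its presence in a stretch says little by itself.

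PTS encodes 6-pyruvoyltetrahydropterin synthase, which makes an intermediate of tetrahydrobiopterin, the cofactor of the aromatic amino acid hydroxylases. Its sites were the tightest group of the 10. All of them lay at the very start of the gene on chromosome 11, on the plus strand, at bases 9, 10 and 22 counted from the annotated start. The adjacent pair of C, positions 112226436 and 112226437, was in both lists. The first C scored 4.12 in the NAT10 KD list and 2.67 in the WT list by the authors' deposited score. The second C, the middle of CCG, scored 2.80 in NAT10 KD and 3.67 in WT. The first base of the pair thus ranked above the second in NAT10 KD (rank 63 against 135 of 950) and below it in WT (rank 186 against 96 of 1005). The WT list alone added position 112226449, 12 bp downstream, at 1.42. That C lies just after the ATG triplet at bases 17 to 19 of the stretch.

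PRKAR1A encodes the type I alpha regulatory subunit of protein kinase A, which holds the catalytic subunits inactive until cyclic AMP binds. It was 1 of only 2 genes, RPL23AP42 being the other, with 3 sites in both lists. Its sites lay far apart on the genome, over 15778 bp of chromosome 17 on the plus strand. Distances between sites are in genome coordinates throughout, with any introns counted, so spacing on the spliced RNA is not known. Position 68512080, base 81 from one of the gene's 5 tabulated starts, scored 1.60 in NAT10 KD and 1.80 in WT. Position 68527858, 12438 bp beyond the middle site of NAT10 KD, scored 3.81 in NAT10 KD and 2.02 in WT. The middle site differed between the lists by 1 base. NAT10 KD listed position 68515420, the second C of the capital pair above, at 4.61, the highest score among the 13 NAT10 KD sites of these genes. WT listed position 68515419, the first C, at 2.31. Matched at identical positions these count as a site of NAT10 KD only and a site of WT only, although they are neighbouring bases of 1 transcript, 26 and 27 bases from another annotated start. Over all 1506 genes, 6 had such neighbouring bases with 1 listed in each genotype only.

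RPL23AP42 is a copy of the gene for RPL23A, a protein of the large ribosomal subunit, and RefSeq classes it as a pseudogene. Its 3 positions on chromosome 3, minus strand, were the same in both lists. Position 161429564 scored 2.49 in NAT10 KD and 1.83 in WT. Position 161429561, 3 bp away, scored 4.31 in NAT10 KD and 1.66 in WT. Position 161429400, 161 bp further along, scored 1.45 in NAT10 KD and 1.95 in WT. These lie at bases 49, 52 and 213 of the 541 bases of the pseudogene, counted on the strand of the sites, and inside the span of LINC02067. RPL23A and its pseudogenes number 96 entries in the RefSeq table, and the other 95 had 0 listed sites in either genotype. Reads from near-identical copies can be placed at any of them, so the gene of origin of these 3 sites is uncertain.

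**Figure D1:**
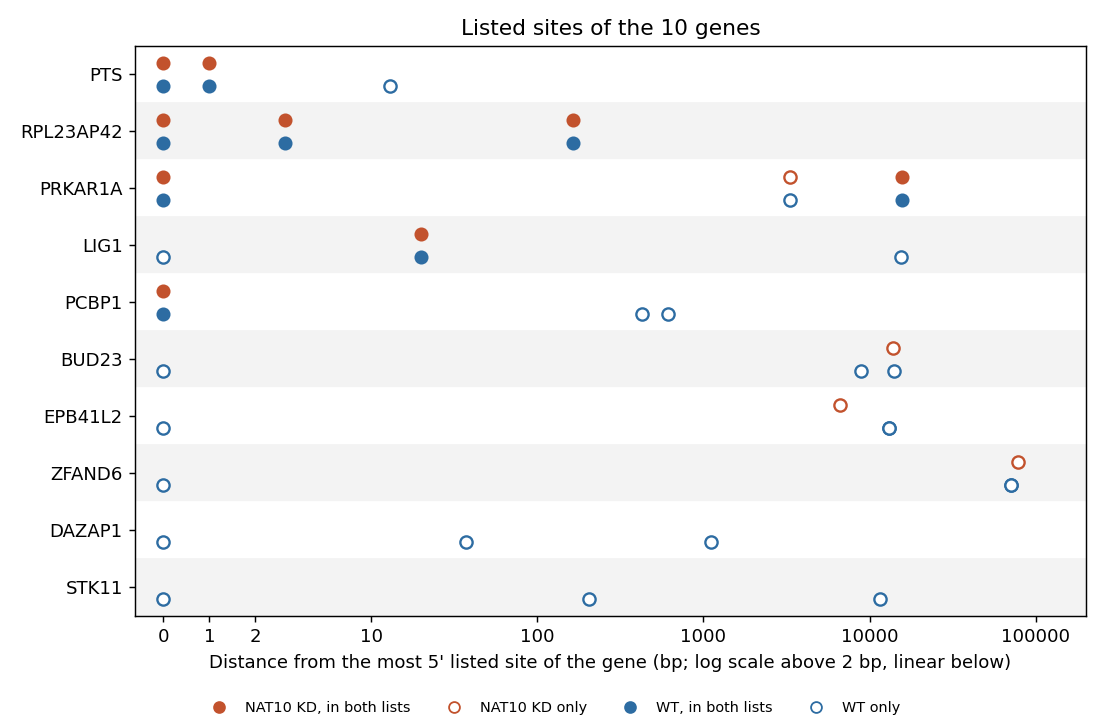
Listed sites of the 10 genes, as genome distance in bp from the most 5′ listed site of each gene (log scale above 2 bp), NAT10 KD above WT in each row. Filled circles are positions in both lists and open circles positions in 1 list: PTS, RPL23AP42 and PRKAR1A have the same positions filled in both rows, while DAZAP1 and STK11 have no NAT10 KD site. The EPB41L2 pair 2 bp apart and the ZFAND6 pair 73 bp apart overlap at this scale.

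LIG1 encodes DNA ligase I, which joins Okazaki fragments in replication. Its position 48165597 on chromosome 19, minus strand, was in both lists and scored 3.14 in NAT10 KD and 2.07 in WT. WT also listed position 48165617, 20 bp upstream in the gene, at 1.90, and position 48150151, which lies 15446 bp downstream of the shared site and inside the span of LIG1-AS1, at 1.53. The NAT10 KD list thus held 1 of the 3 positions, the one with the highest score of the gene in WT.

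PCBP1, a gene for a poly(C)-binding protein of the hnRNP E class that regulates mRNA stability and translation, spans 1727 bp of chromosome 2. Position 70087685, base 209 from the start, scored 1.34 in NAT10 KD and 1.76 in WT. Positions 70088113 (2.38) and 70088296 (1.46) were in the WT list only, 428 and 611 bp downstream of the shared site. Here the shared position was not the one that scored highest in WT. The first 2 positions also lie in the span of PCBP1-AS1, which runs on the opposite strand to the listed sites.

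BUD23, the methyltransferase that forms 7-methylguanosine in 18S rRNA, had sites in both lists but none at the same position. NAT10 KD listed position 73697692 on chromosome 7 at 2.77. WT listed position 73683775, base 179 from the start, at 6.23, the highest score among the 30 WT sites of these genes and rank 41 in its list. The other WT positions were 73692639 (1.46) and 73697894 (1.91). The NAT10 KD site lay 202 bp from the nearest WT site, and the pair lies close to the 3′ end of the gene, at 521 bases from it for the NAT10 KD site and 319 for the WT site.

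EPB41L2 encodes protein 4.1G, which links spectrin and actin to membrane proteins. NAT10 KD listed position 130870055 on chromosome 6, minus strand, at 2.50. WT listed 2 positions only 2 bp apart, 130863668 at 1.76 and 130863666 at 1.36, and position 130876688 at 1.31. The NAT10 KD site lay between them, 6387 bp from the close pair and 6633 bp from the third WT site. ZFAND6, a gene for an A20/AN1-type zinc finger protein that binds ubiquitin, showed the widest spread, over 71489 bp of chromosome 15 in WT. NAT10 KD listed position 80137729 at 2.10, which lies 665 bases from the 3′ end of the gene span. WT listed position 80059782 at 2.28, base 107 from an annotated start and shown among the stretches above, and the close pair 80131198 (1.40) and 80131271 (1.31), 73 bp apart. Neither gene had a position in common between the lists.

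DAZAP1 and STK11 had 3 sites each in WT and 0 in NAT10 KD. DAZAP1 encodes an RNA-binding protein that acts in splicing and translation. Its WT positions on chromosome 19 were 1428866 at 4.45, 1428903 at 1.32, only 37 bp away, and 1429982 at 2.33. STK11 encodes LKB1, the kinase that activates AMPK. Its WT positions, also on chromosome 19, were 1206938 at 3.27, 1207141 at 1.50 and 1218427 at 1.46. The top sites of DAZAP1 and STK11 ranked 69 and 118 in the WT list, while their lowest scores there were 1.32 and 1.46. A rank in WT gives no depth in NAT10 KD, so why these sites are absent from that list was not tested. The lists end just above a score of 1.30103, the −log10 of 0.05 (lowest 1.30173 in NAT10 KD and 1.30155 in WT), so the absence of a site from one list does not show that the base was unmodified there.

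**Figure D2:**
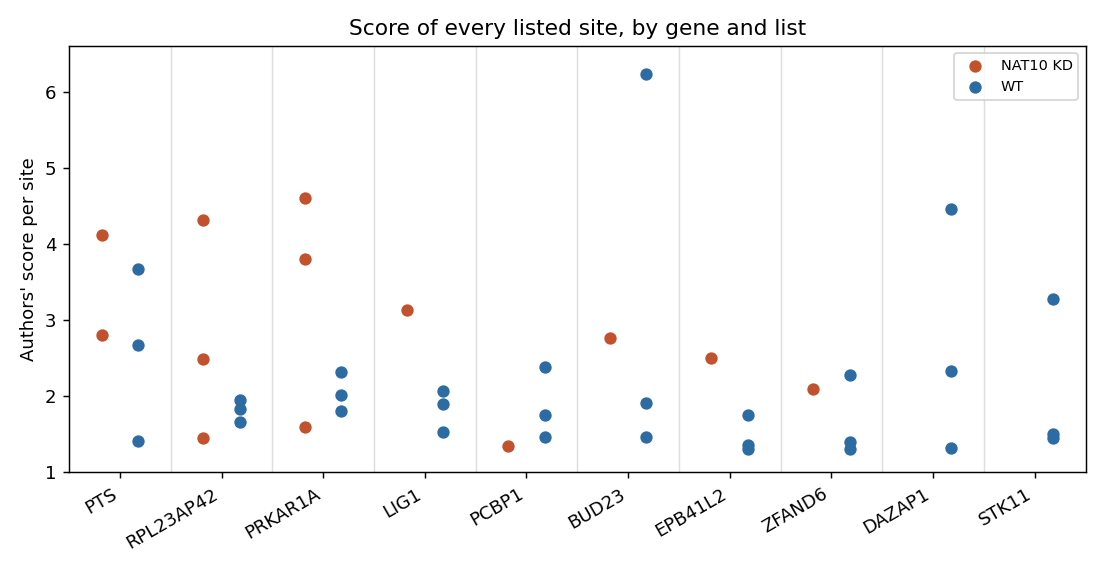
The authors' score of every listed site of the 10 genes, NAT10 KD left of WT in each column, each point being 1 site. The highest points are the WT site of BUD23 at 6.23 and the NAT10 KD site of PRKAR1A at 4.61, and DAZAP1 and STK11 have WT points only.

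In all, the 10 genes had 13 sites in NAT10 KD, in 8 genes, and 30 in WT, 3 in each gene. This difference follows from how the genes were chosen and is no result about the knockdown. At least 3 sites were found in 11 of 845 genes of the NAT10 KD list (1.3%) and in 18 of 883 genes of the WT list (2.04%), and each of the 10 genes reached 3 in WT, only PRKAR1A and RPL23AP42 also in NAT10 KD. The 9 other genes that reached 3 in NAT10 KD went the opposite way, with 27 sites in NAT10 KD and 7 in WT. They were SLC2A1, NISCH, PLEC, ANKRD11, MYBBP1A, LMNB2, CHAF1A, TIMM50 and FDX2. The 8 further genes that reached 3 in WT had 11 sites in NAT10 KD and 25 in WT, namely SPTBN1, the only gene with 4, NUMA1, SART1, SRRM2, HSPB1, TUBA1A, MACF1 and ENSG00000218175, which has no symbol in the lists. Just below the threshold, 83 genes had 2 sites in NAT10 KD and 85 in WT.

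The choice rule counted sites and did not ask which positions recurred, but the genes were picked with both lists known. In the 10 genes 9 of 34 distinct positions (26.5%) were in both lists, where 5.62% of all 1851 listed positions were. They came from 5 genes: RPL23AP42 (3), PTS (2), PRKAR1A (2), LIG1 (1) and PCBP1 (1). They made up 69.2% of the 13 NAT10 KD sites and 30.0% of the 30 WT sites of these genes, whereas 10.9% of all NAT10 KD sites and 10.3% of all WT sites were shared. Without RPL23AP42, 6 of 31 positions (19.4%) were shared. With a tolerance of 1 bp 11 of 34 positions (32.4%) had a counterpart in the other list, the further 2 being both bases of the PRKAR1A pair, counted separately. The share over all listed positions was not computed at 1 bp, so the 32.4% has no background beside it. Among other genes with at least 2 distinct positions, 36 of 577 positions (6.24%) were in both lists. The 9 genes with 3 sites in NAT10 KD that are not among the 10 had 0 shared of 34 positions, and the 8 further WT genes 3 of 33 (9.09%), in HSPB1, SPTBN1 and SRRM2. The 17 genes left out by the choice thus had 3 of 67 (4.48%), and all 27 genes with 3 or more sites in a list 12 of 101 (11.9%). Sites of 1 gene share its RNA and its coverage, so these shares are given with no test, and the share of the 10 genes cannot be told apart from how they were picked.

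At the 9 shared positions the score was higher in NAT10 KD at 5 and higher in WT at 4. The higher NAT10 KD scores were at the first PTS base, the last PRKAR1A site, LIG1 and the 2 RPL23AP42 bases that are 3 bp apart. The shared positions of the other genes numbered 95, with 33 higher in NAT10 KD and 62 higher in WT. Depth may enter the score, whose formula is not stated, so these pairs measure no change of acetylation.

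**Figure D3:**
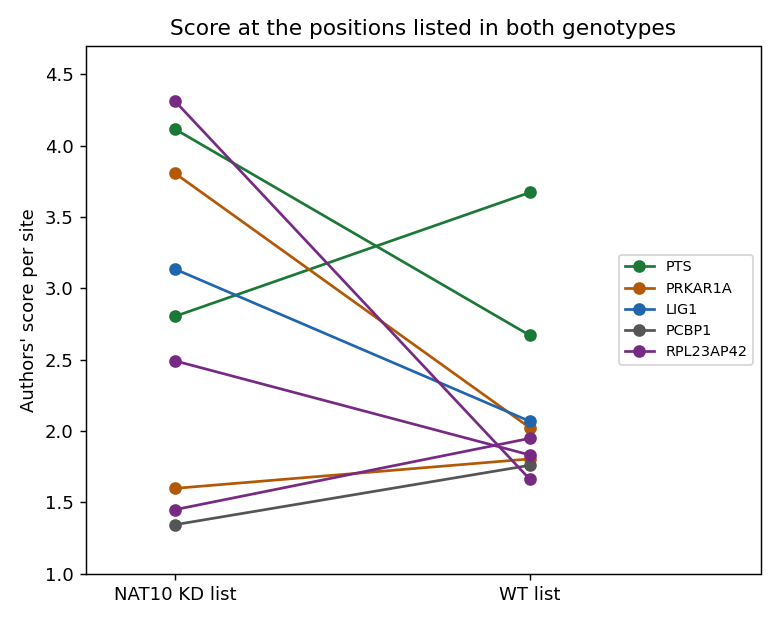
The authors' score at the 9 positions listed in both genotypes, NAT10 KD on the left and WT on the right, with a line per position coloured by gene. Scores at 5 positions are lower in WT and those at 4 are higher, and the PTS lines cross: 4.12 and 2.80 in NAT10 KD stand beside 2.67 and 3.67 in WT.

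Shared sites and single-list sites of the 10 genes overlapped in score. In NAT10 KD the 9 shared sites had scores of 1.34 to 4.31 with a median of 2.80, and the 4 sites of NAT10 KD only 2.10 to 4.61 with a median of 2.63. In WT the 9 shared sites ran between 1.66 and 3.67 with a median of 1.95, and the 21 sites of WT only between 1.31 and 6.23 with a median of 1.53. All 13 NAT10 KD sites of these genes had a median of 2.77, where the whole NAT10 KD list had 1.72, and the 30 WT sites a median of 1.82, where the WT list had 1.70. A score of at least 2 was reached by 10 of the 13 NAT10 KD sites (76.9%, against 31.9% of the list) and 11 of the 30 WT sites (36.7%, against 33.7%). All 10 genes reached 3 sites in WT and 8 of them only there, so the 2 lists entered the choice unequally. The part of this in the scores was not tested, and nothing is read from this contrast.

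Close and distant sites occurred together in several genes, such as EPB41L2 with WT gaps of 2 and 13020 bp and LIG1 with 20 and 15446 bp. Sites within 10 bp of another site of the gene in the same list numbered 4 of 8 in the 3 genes with 2 or more NAT10 KD sites, and 6 of 30 in WT (20.0%). Over all genes with 2 or more sites the shares were 13.1% of 199 sites in NAT10 KD and 10.7% of 225 sites in WT. The NAT10 KD sites this close were the PTS pair and the 2 RPL23AP42 bases that are 3 bp apart. The WT list held the same 4 and added the EPB41L2 pair. The median distance to the nearest site of the same gene was 82 bp over the 8 NAT10 KD sites and 183 bp over the 30 WT sites. For the other genes with 2 or more sites it was 1693 bp in NAT10 KD and 2995 bp in WT. The 8 NAT10 KD sites came from 3 genes, and their median falls in the gap between distances of 3 and 161 bp. A gene with 3 sites has closer neighbours than a gene with 2 by number alone, and most of the other genes had 2. All these distances are between genome coordinates, so spacing on the spliced RNA is not known.

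**Figure D4:**
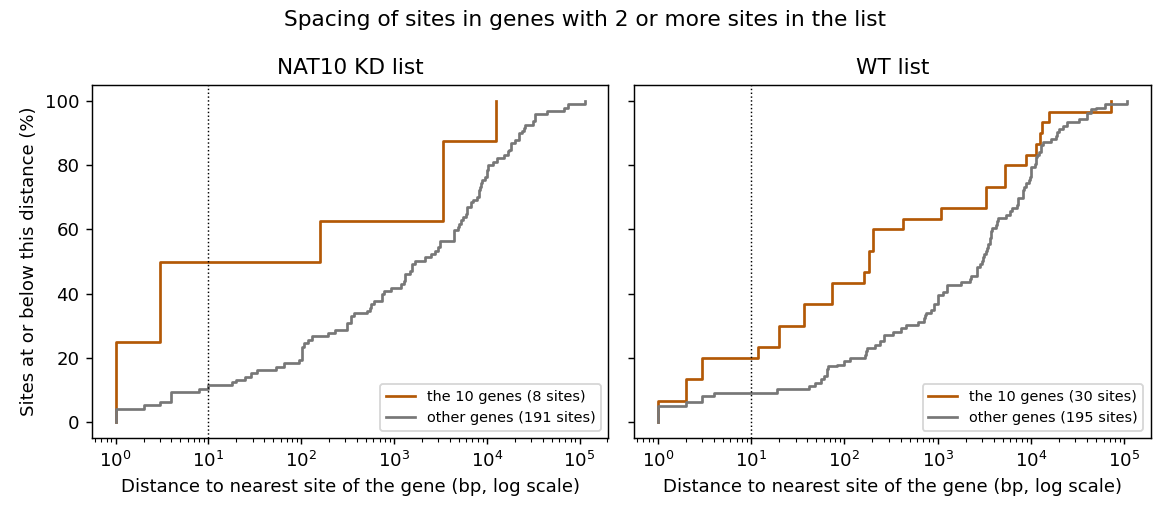
Cumulative share of sites (%) by genome distance in bp to the nearest site of the same gene (log scale), NAT10 KD on the left and WT on the right, for the 10 genes and for other genes with 2 or more sites in the list. The dotted line marks 10 bp, below which lie 4 of 8 NAT10 KD sites and 6 of 30 WT sites of the 10 genes.

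Runs of directly neighbouring bases were rare. PTS was the only one of the 10 genes with such a pair within a list, the same pair in both, and no run was longer than 2 bases. Over all genes there were 5 adjacent pairs in NAT10 KD (PTS, TIMM50, LSM7, IWS1 and EEF1G) and 6 in WT (PTS, ANP32B, CHTOP, CENPN, MZT2A and SPINT1-AS1), and PTS was the only gene with a pair in both. Joining the lists gave 16 adjacent pairs, 2 of them in the 10 genes, PTS and PRKAR1A. Of the sites found in NAT10 KD only, all 4 had a WT site of the same gene, at a distance of 1 to 6458 bp. This was fixed by the choice, since each of the 10 genes had WT sites. Of the 21 sites found in WT only, 15 had a NAT10 KD site of the same gene, at 1 to 77947 bp. The remaining 6 were those of DAZAP1 and STK11.

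Where along the genes the sites lay also varied. For the 9 genes with a tabulated start, all 31 positions were on the strand of the gene. How the lists assigned sites to genes is not stated, so that step may have fixed the strand. Of the 31 positions 9, in 5 genes, lay within 300 bases downstream of a start. These were the 3 PTS positions, 3 of PRKAR1A and 1 each of BUD23, PCBP1 and ZFAND6. PRKAR1A and ZFAND6 have 5 tabulated starts each and EPB41L2 has 4, where the others have 1. Of these 9, 4 were in both lists, the PTS pair, the first PRKAR1A site and the first PCBP1 site. Across the 10 genes, 6 positions lay inside the span of a second gene: 2 of PCBP1, 1 of LIG1 and the 3 of RPL23AP42. None of these counts was made over all listed positions, so whether the 10 genes differ from other genes in them was not tested. Exons, introns and coding regions were not analysed here.

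Some genes related to the 10 by pathway or family were listed too. They are named as a description, since the lists are small, the protein-coding shares given above include genes that are not expressed, and no share among expressed genes was computed. Among the protein kinase A subunits and anchors, PRKAR1B, the other type I regulatory subunit, was in NAT10 KD (1.94), and the anchors AKAP8L (2.53) and AKAP12 (1.45) were in WT, 1 and 2 of 14. Of the rRNA and tRNA methylation genes listed beside BUD23, FBL was in both at 1 position (14.5 in NAT10 KD and 28.4 in WT).

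For the membrane skeleton around EPB41L2, the spectrin gene SPTBN1 was in both lists, the adducin gene ADD2 in NAT10 KD (1.83) and ADD3 in WT (1.74). Around LIG1, the sliding clamp PCNA had a shared position (4.91 in NAT10 KD and 1.83 in WT), the clamp loader gene RFC2 was in both at different positions, POLD2 was in NAT10 KD and RFC1 and RFC4 in WT. PCBP2, a close relative of PCBP1 and 1 of 4 genes in its list, had 1 shared position on chromosome 12 (53455487), with 8.67 in NAT10 KD and 11.3 in WT, well above any PCBP1 score in the deposited lists. ZFAND5, the paralogue of ZFAND6, was in NAT10 KD only (1.54). Of the hnRNP A/B type genes related to DAZAP1, HNRNPD had a shared position (26.3 in NAT10 KD and 34.8 in WT), HNRNPA2B1 different positions, HNRNPA3 a NAT10 KD site and HNRNPA0 2 WT sites. Among the 15 genes around STK11, PRKAA1, the catalytic alpha1 subunit of AMPK, had the only site, in NAT10 KD (1.50).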

How the data were processed

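Per the submitters' processing notes, the tools were SAMtools 1.12, STAR 2.7.8a and fastp 0.21.1, with the build hg38. The site caller, and any use of input, replicates and molecular identifiers, were not given in the sources used here. Deposited by the authors was 1 table per genotype, whose value is a score per site, per the file headers, with no formula. Scores were used to describe and rank sites within a list.

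Each site is 1 base, given by its end coordinate (1-based). Sites were matched at identical chromosome, position and strand and grouped by the lists' gene identifier. Gene spans, gene starts and sequences came from RefSeq tables of GRCh38.p14. All 10 genes matched by symbol, and 9 of them had a start window. Counting used Python 3.11.15, pandas 2.3.3 and NumPy 2.4.6, with matplotlib 3.10.9 for plots, and was tested on simulated lists. No significance test was run.

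The members, the related lists and the limits were chosen with earlier results of these data known. Every site of the 10 genes, other genes with 3 or more sites, and related genes with a site were named, except for some that are not reported here. Genes with adjacent pairs were named after their values were seen. Alternatives were a score minimum of 2, leaving out RPL23AP42, tolerances of 1 and 10 bp, neighbour limits of 1 and 50 bp, joined lists and merging of sites within 10 bp.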

Additional observations from a re-analysis of the deposited data

How the results depend on the processing

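Of 24 alternative values for 7 counts in the 10 genes, 15 stayed within 1.5 times the reported count. At a score of at least 2 the WT list kept 11 sites, 2 of them with a neighbour within 10 bp, and 4 positions were in both lists, since a higher minimum removes sites. Without RPL23AP42, the NAT10 KD sites with a neighbour within 10 bp numbered 2. With a limit of 50 bp, 11 WT sites had a neighbour, and with a limit of 1 bp 2 sites had one in NAT10 KD and 2 in WT. Joining the lists gave 2 adjacent pairs in place of the 1 per list. No paired analysis was possible because each genotype has 1 list in which replicates are not separate, and for the same reason no replicate could be left out. The depth behind each site is unknown, so how many sites it limits was not tested.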
